A study of Mus musculus with 52 samples.

Results

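The comparison described here sets 2 untreated mouse embryonic stem cell (mESC) lines, Kdm2a-CXXC and Kdm2b-CXXC, against each other by the accessibility of their promoters. Its members were all untreated ATAC libraries of these lines, 6 of the 52 samples of the series (3 per line), and the 19900 autosomal promoters among the 20633 in the deposited tables, joined on their RefSeq identifiers. In Kdm2a-CXXC cells loxP sites flank the exon of Kdm2a that encodes the ZF-CxxC domain, in Kdm2b-CXXC cells the equivalent exon of Kdm2b is flanked, and both lines express a tamoxifen-inducible CRE recombinase. Neither group had received tamoxifen, so both retained intact KDM2A and KDM2B. The study treated each line with 800 nM tamoxifen for 96 h to delete the domain, and those 3 libraries per line served here as a repeat of the line difference and in a test of line by treatment. Kdm2a-CXXC was a clone selected after genome editing, and Kdm2b-CXXC came from an earlier study, so each line stands for 1 derivation. Line, derivation and the separate handling of each line's table cannot be told apart.

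KDM2A and KDM2B are histone H3K36 demethylases that bind CpG islands, the stretches of unmethylated CpG-rich DNA found at most mammalian promoters, through their ZF-CxxC domains. ATAC-seq reads accessibility from how often the Tn5 transposase inserts into DNA. Promoters in CpG islands are broadly open in most cell types, whereas CpG-poor promoters tend to open in particular cell types or states. Because insertions are counted per unit of DNA, a region present in more copies also yields more reads, and a shift of that kind moves neighbouring promoters together. For this reason the comparison was made first as it stands, then with the median difference of each chromosome removed, and then with the median of each stretch of a chromosome that shifted together removed.

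All levels are given as reads per 1000000 promoter reads (RPM), which sets aside the calibration to Drosophila DNA that was carried out separately in each table. The untreated Kdm2a-CXXC libraries held between 2227838 and 3025358 promoter reads and the Kdm2b-CXXC libraries between 2409441 and 2565444. Across the tested promoters, log2 levels correlated at 0.965 to 0.971 within a line and at 0.940 to 0.948 between lines, where promoters are not independent replicates. Levels at the promoters of core pluripotency genes can be set against the median tested promoter, at 46.9 RPM in Kdm2a-CXXC and 51.1 in Kdm2b-CXXC. Pou5f1 stood at 39.1 RPM in Kdm2a-CXXC and 45.8 in Kdm2b-CXXC, Sox2 at 119 and 106, and Nanog at 47.5 and 58.2, and none of these 3 was called different in untreated cells. In treated libraries Pou5f1 was called lower in Kdm2a-CXXC, by -0.81 (log2, adjusted p = 0.0025, limma). The 10 fibroblast marker promoters that were tested had no call in either direction, and their summed level was 243 to 268 RPM in Kdm2a-CXXC and 241 to 255 in Kdm2b-CXXC.

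The promoters on which the comparison turns are shown first by sequence. Each line gives the 200 bases immediately before an annotated start site in RefSeq (build GRCm38.p6, the same as the mm10 build of the deposited data). The bases run 5′ to 3′ on the strand of the gene, with every CG in capitals. A ZF-CxxC domain recognises CG that is not methylated, and methylation was not measured here. Arap1, Kat2b and Hormad2 were more accessible in Kdm2a-CXXC cells. Hdac9, Prlr and Wnt3 were more accessible in Kdm2b-CXXC cells. Pcdh17 lay in a segment of chromosome 14 in which 47 of 50 tested promoters were called higher in Kdm2a-CXXC cells.
Arap1 (chr7:101385326-101385525): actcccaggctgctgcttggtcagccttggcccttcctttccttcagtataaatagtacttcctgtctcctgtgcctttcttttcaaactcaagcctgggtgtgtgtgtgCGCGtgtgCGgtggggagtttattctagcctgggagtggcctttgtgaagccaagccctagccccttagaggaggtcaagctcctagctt
Kat2b (chr17:53583926-53584125): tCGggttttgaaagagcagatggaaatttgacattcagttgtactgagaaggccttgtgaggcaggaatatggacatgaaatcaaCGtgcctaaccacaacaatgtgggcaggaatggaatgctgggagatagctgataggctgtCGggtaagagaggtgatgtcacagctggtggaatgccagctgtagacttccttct
Hormad2 (chr11:4441083-4441282): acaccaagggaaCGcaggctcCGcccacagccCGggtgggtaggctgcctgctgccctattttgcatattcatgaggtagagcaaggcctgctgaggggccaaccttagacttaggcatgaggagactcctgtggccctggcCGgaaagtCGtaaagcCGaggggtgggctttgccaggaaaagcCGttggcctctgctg
Hdac9 (chr12:34528890-34529089): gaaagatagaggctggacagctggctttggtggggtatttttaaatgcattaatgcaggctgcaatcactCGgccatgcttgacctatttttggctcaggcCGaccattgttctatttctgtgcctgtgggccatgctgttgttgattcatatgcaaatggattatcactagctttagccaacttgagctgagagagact
Prlr (chr15:10177038-10177237): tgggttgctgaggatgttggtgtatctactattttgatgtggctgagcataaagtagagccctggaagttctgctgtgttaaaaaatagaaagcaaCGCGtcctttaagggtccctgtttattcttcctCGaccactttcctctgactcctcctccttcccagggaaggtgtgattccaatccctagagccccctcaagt
Wnt3 (chr11:103773975-103774174): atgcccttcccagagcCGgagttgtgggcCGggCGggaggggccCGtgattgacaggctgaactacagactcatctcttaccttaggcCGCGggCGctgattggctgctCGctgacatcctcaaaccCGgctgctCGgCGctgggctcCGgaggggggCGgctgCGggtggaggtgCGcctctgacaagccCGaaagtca
Pcdh17 (chr14:84443363-84443562): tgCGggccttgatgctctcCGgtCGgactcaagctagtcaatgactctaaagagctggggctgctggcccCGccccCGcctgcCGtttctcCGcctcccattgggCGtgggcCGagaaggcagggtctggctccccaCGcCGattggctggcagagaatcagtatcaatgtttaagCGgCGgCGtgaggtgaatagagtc

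These windows held 3 CG in Arap1, 3 in Kat2b, 2 in Hdac9 and 3 in Prlr, against 7 in Hormad2, 14 in Pcdh17 and 16 in Wnt3. Hormad2 and Hdac9 are on the minus strand and the others on the plus strand. Hormad2, Wnt3 and Pcdh17 were classed as CpG-rich over their 400 bp interval and the other 4 were not.

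The first question was how many promoters differed between the untreated lines. Of 17364 autosomal promoters that passed the filter on low reads, 2054 differed by more than 1.4-fold with an adjusted p below 0.05 (limma, Benjamini-Hochberg adjustment), which is 11.8%. Of these, 673 (3.88%) were more accessible in Kdm2a-CXXC cells and 1381 (7.95%) in Kdm2b-CXXC cells. In bulk libraries, a larger share of cells with an open promoter and a more open promoter in each cell cannot be told apart. The median over all tested promoters was -0.06 (log2, Kdm2a-CXXC minus Kdm2b-CXXC), and the share of calls that were higher in Kdm2a-CXXC, 32.8%, moved with the scaling: it was 43.2% with median-of-ratios size factors, 44.7% with GC content set equal in 10 bins, 49.96% with DESeq2 and 57.6% with quantile normalization.

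Part of these calls lay in whole chromosomes or large segments. The median difference was at least 0.1 in size, with no overlap between the libraries of the lines, on 5 of 19 autosomes. The libraries of the lines also did not overlap on the other autosomes apart from chromosome 14, and the median over all tested promoters was -0.06. It was 0.26 on chromosome 1 and 0.23 on chromosome 3, where Kdm2a-CXXC cells were higher, and -0.12, -0.15 and -0.22 on chromosomes 6, 7 and 8, where they were lower. On the X chromosome, which was left out of the tests, the median of 532 promoters was -0.11.

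**Figure D1:**
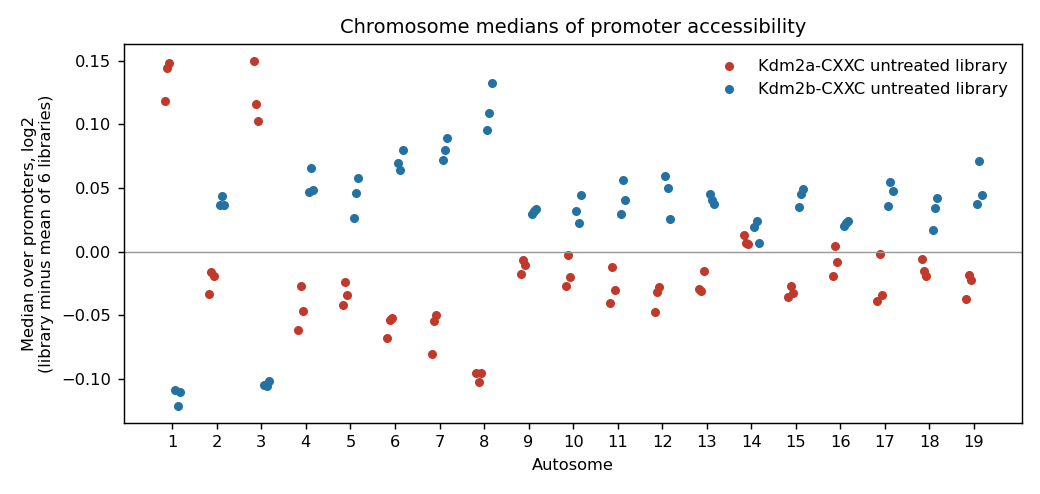
Median over the tested promoters of each autosome of a library's log2 level minus the mean of the 6 untreated libraries, with 1 point per library (red, Kdm2a-CXXC; blue, Kdm2b-CXXC). On chromosome 1 the Kdm2a-CXXC libraries lay between 0.12 and 0.15 and the Kdm2b-CXXC libraries between -0.12 and -0.11, and chromosome 8 showed the reverse order.

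A whole-chromosome median did not describe chromosomes 1, 6, 7 and 14, which broke into 7, 2, 3 and 4 segments when a step function was fitted to the differences along each autosome, while the other 15 autosomes stayed in 1 piece. The segments were found in the untreated libraries, so their untreated medians are descriptions. Genomic DNA libraries were not analysed here, so copy number and accessibility cannot be told apart within a segment. On chromosome 1, the 34 tested promoters between 34.16 and 37.22 Mb had a median of 1.39, a 2.63-fold higher level in Kdm2a-CXXC cells. The next 432 promoters, up to 115.7 Mb, had a median of 0.52, and the 50 between 118.3 and 129.3 Mb a median of 1.22. The 33 promoters between 130.7 and 133.1 Mb went the other way, with a median of -1.04.

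Chromosome 14 kept a median of -0.07 over its first 487 promoters and then stepped to 0.79 for 52 promoters between 74.64 and 80.00 Mb and to 1.59, a 3.02-fold difference, for 50 promoters between 84.44 and 115.4 Mb. Its last 37 promoters, from 118.1 Mb onwards, had a median of -1.07, and all 37 were called higher in Kdm2b-CXXC cells. Smaller steps covered the 332 promoters of chromosome 6 beyond 112.5 Mb (-0.30) and the 385 promoters of chromosome 7 between 25.79 and 62.35 Mb (-0.38). Chromosomes 3 and 8 were shifted along their whole length, at 0.23 and -0.22.

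**Figure D2:**
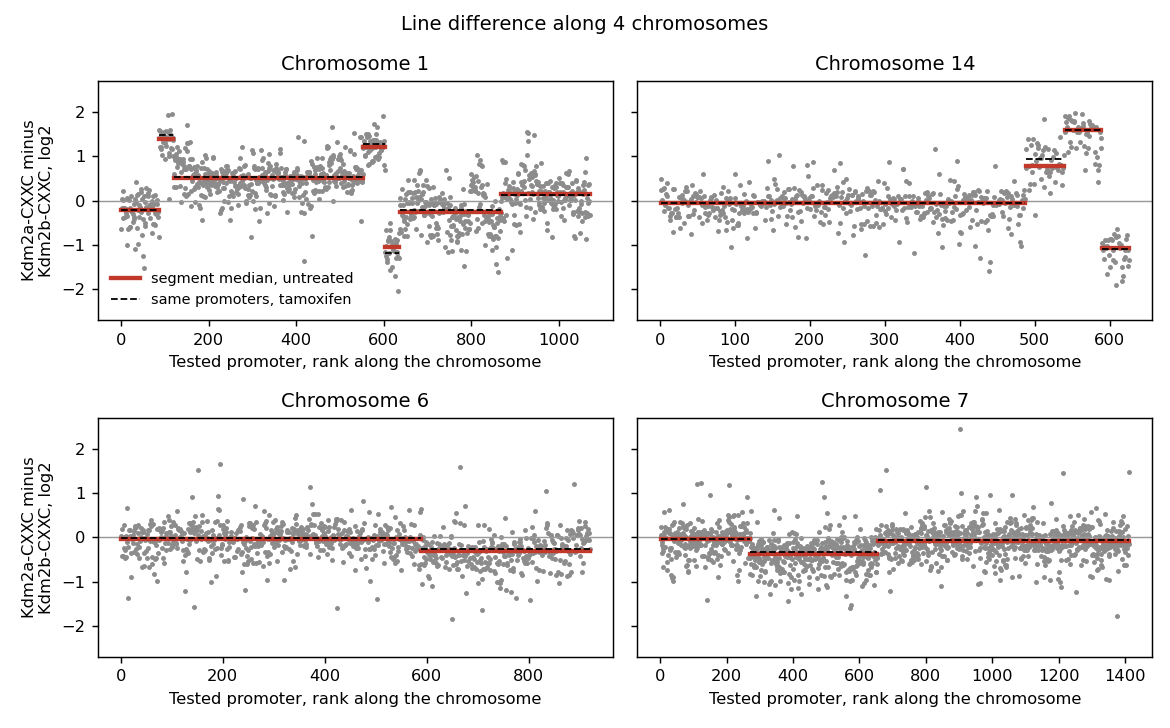
Kdm2a-CXXC minus Kdm2b-CXXC log2 level of each tested promoter (grey points, untreated libraries), ordered along chromosomes 1, 14, 6 and 7. Red bars are segment medians in untreated libraries and dashed lines the medians of the same promoters in tamoxifen-treated libraries, which were 1.59 and 1.59 in the highest segment of chromosome 14 and 1.39 and 1.48 in that of chromosome 1.

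The treated libraries, which played no part in finding the segments, gave 1.48, 0.52, 1.27 and -1.19 for the 4 segments named on chromosome 1 and 0.93, 1.59 and -1.10 for the 3 on chromosome 14. Within a segment the libraries of a line lay close together. In the highest segment of chromosome 14, library medians relative to the mean of the untreated libraries were 0.81, 0.75 and 0.79 in untreated Kdm2a-CXXC and -0.79, -0.75 and -0.72 in untreated Kdm2b-CXXC.

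The same segments were read in the other 2 lines of the series. Kdm2a/b-CXXC, which was made by editing Kdm2a in Kdm2b-CXXC cells, differed from Kdm2b-CXXC by 0.01 in the first shifted segment of chromosome 1 and by -0.02 and -0.09 in the last 2 of chromosome 14. On chromosomes 6 and 7, in contrast, untreated Kdm2a/b-CXXC was above Kdm2b-CXXC by 0.28 and 0.27 in the segments where Kdm2a-CXXC was below it. The Kdm2a/b-JmjC line, derived separately, was above Kdm2b-CXXC by 0.34 to 0.62 in every segment of chromosome 1. These medians share the Kdm2b-CXXC libraries and are given side by side only.

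Genes in the shifted segments carried some of the largest differences. Klf5, a transcription factor of naive pluripotency, had 548, 528 and 574 RPM in Kdm2a-CXXC against 165, 141 and 168 in Kdm2b-CXXC. Every Kdm2a-CXXC library was above 3 times the highest Kdm2b-CXXC library at Klf5. Spry2, an inhibitor of receptor tyrosine kinase signalling, had 75.9, 72.4 and 78.4 RPM in Kdm2a-CXXC against 23.8, 19.9 and 26.6 in Kdm2b-CXXC. Pcdh17, a protocadherin, had 282, 239 and 242 RPM in Kdm2a-CXXC against 74.8, 57.6 and 69.3 in Kdm2b-CXXC, and its level in treated cells was 300.1, 230.5 and 247 RPM in Kdm2a-CXXC against 78.5, 80.6 and 91.8 in Kdm2b-CXXC. These 3 genes were called with chromosome 14's median removed, by 1.82, 1.68 and 1.93 (log2). With the median of the segment removed they were not called, at differences of 0.20, 0.06 and 0.32. With a running median in place of the segment, Pcdh17 was called at 0.71 (adjusted p = 1.08e-05, limma). Pcdh17 is the first tested promoter of its segment, so its running window also took in promoters of the preceding segment, whose median was 0.79. In treated libraries the Pcdh17 difference beyond the segment was 0.03 and was not called.

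On chromosome 1, Tfcp2l1, another naive pluripotency factor, had 164, 187 and 226 RPM in Kdm2a-CXXC against 92.8, 90.5 and 100.4 in Kdm2b-CXXC, and its difference went from 0.75 with the chromosome median removed to -0.21 with the segment median removed (adjusted p = 0.238, limma). Inhbb, a subunit of activin and inhibin, went from 1.24 to 0.28 (adjusted p = 0.409, limma). In the segment that was lower in Kdm2a-CXXC, the solute carriers Slc26a9 and Slc45a3 went from -1.83 and -1.77 to -0.53 and -0.47. A second, CpG-rich Slc45a3 promoter went from -1.30 to 0.00. In treated libraries that promoter was called higher in Kdm2a-CXXC beyond the segment (0.60, adjusted p = 0.0218, limma). Nfasc, a neuronal adhesion molecule of the same segment, had 10.3, 10.9 and 6.47 RPM in Kdm2a-CXXC against 40.9, 41.0 and 39.4 in Kdm2b-CXXC. It stayed called beyond the segment median, at -1.01 (adjusted p = 0.000174, limma). In treated libraries it stood at -0.51 and was not called (adjusted p = 0.0812, limma). A second Nfasc promoter, not CpG-rich, stood at -0.12 beyond the segment median in untreated libraries (adjusted p = 0.89, limma).

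At the end of chromosome 14 lie the neural transcription factor genes Zic2 and Zic5, a head-to-head pair, and Sox21. Zic2 had 25.1, 36.4 and 26.3 RPM in Kdm2a-CXXC against 74.1, 56.0 and 61.4 in Kdm2b-CXXC, and its difference was -1.09 with the chromosome median and -0.04 with the segment median removed. Sox21 went from -1.01 to 0.04. Zic5 kept -0.63 (adjusted p = 0.00346, limma), and in treated libraries it stood at -0.32 and was not called (adjusted p = 0.29, limma). Oxgr1, a receptor gene of the same segment, was the 1 autosomal promoter that held at most 3 reads in every library of a line and at least 10 in every library of the other, with 3, 3 and 1 reads in Kdm2a-CXXC against 10, 11 and 14 in Kdm2b-CXXC.

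With chromosome medians removed, 1500 promoters were called (8.64%), 516 higher in Kdm2a-CXXC (2.97%) and 984 higher in Kdm2b-CXXC (5.67%), and 1295 of them were among the 2054 called without that step. Chromosomes 1 and 14 held 476 of the 1500, or 31.7%, with 9.77% of the tested promoters. With segment medians removed, 1021 promoters were called (5.88%), 311 higher in Kdm2a-CXXC (1.79%) and 710 higher in Kdm2b-CXXC (4.09%), and chromosomes 1 and 14 then held 120, or 11.8%. A running median over 51 promoters in place of the segments gave 1018 calls (5.86%), of which 862 were the same promoters. The 1021 promoters are the line differences described in the rest of the text, and 963 of them were also called with chromosome medians removed.

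Most of these differences were also present in tamoxifen-treated libraries, in which a different ZF-CxxC domain has been deleted in each line. Of the 1021 promoters, 968 (94.8%) differed in the same direction there, against 69.9% of all promoters tested. Their median size was 0.75 (log2) in untreated and 0.50 in treated libraries, and 388 of the 1017 that could be tested there were called in the treated libraries, where 5.46% of all promoters tested were called. With no median removed, 1874 of 17171 promoters (10.9%) were called in treated libraries. The smaller size in treated libraries holds for promoters selected on the untreated ones. No promoter passed the test of line by treatment (0 of 18765 at an adjusted p under 0.05, limma, with 1130 at an unadjusted p under 0.05). Among the 1021 promoters 167 had an unadjusted p under 0.05 (limma). They were selected on untreated libraries that also enter this test, which by itself makes small p-values more frequent. No other tool was run for this test, and leaving out Kdm2a-CXXC untreated replicate 3, Kdm2b-CXXC tamoxifen replicate 1 or Kdm2b-CXXC tamoxifen replicate 3 gave 3, 1 and 2 calls.

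**Figure D3:**
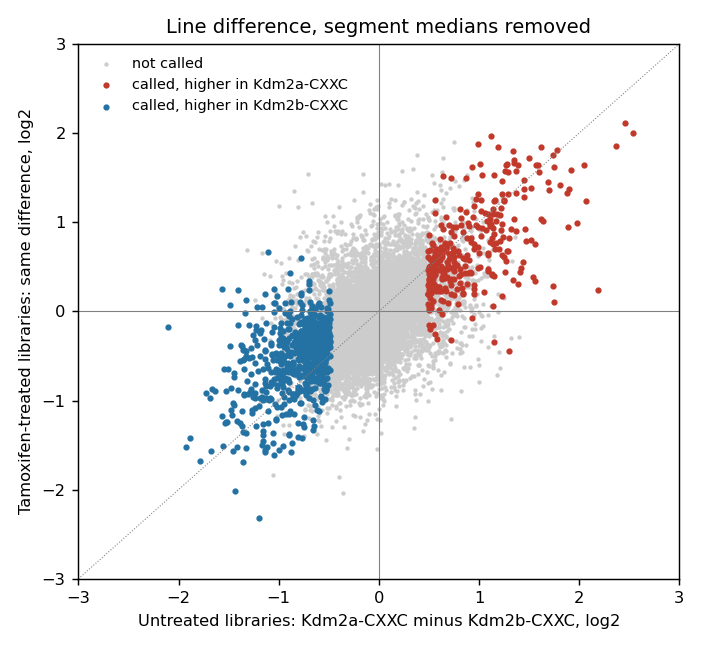
Kdm2a-CXXC minus Kdm2b-CXXC log2 difference with segment medians removed, in untreated (x axis) and tamoxifen-treated libraries (y axis), 1 point per tested promoter. Red points (311) were called higher in Kdm2a-CXXC and blue points (710) higher in Kdm2b-CXXC in untreated cells, and 968 of these 1021 kept their sign in treated cells.

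The called promoters were poorer in CpG than promoters at large. CpG-rich promoters (GC content of 50% or more and CpG at 0.6 or more of the frequency that base composition predicts, over 400 bp) were 385 of the 1021, and 636 (62.3%) were not, against 36.9% of all promoters tested. Among promoters higher in Kdm2a-CXXC the share of CpG-poor ones was 71.1%, and among those higher in Kdm2b-CXXC 58.5%. Put the other way, 3.51% of CpG-rich and 9.92% of other promoters were called. The 200 bases before the start site held a median of 5 CG in promoters higher in Kdm2a-CXXC, 7 in those higher in Kdm2b-CXXC and 12 in all tested promoters with a matched start (224 of 311, 506 of 710 and 12853 of 17364 matched).

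CpG-rich promoters were also compared as a class. Their median relative to other promoters was higher in Kdm2a-CXXC by 0.06 (log2), with library values of 0.0283, 0.00580 and 0.00554 against -0.0367, -0.0517 and -0.0605 in Kdm2b-CXXC (exact two-sided permutation p = 0.1, which is as low as a test of 3 against 3 can go). It was -0.02 with quantile normalization, so its direction depended on the scaling, 0.0082 with no filter on low reads and 0.0368 without Kdm2a-CXXC replicate 1.

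The direction of the calls differed with the level of the promoter. In the second lowest quintile by level, around 23.7 RPM, 394 promoters were called higher in Kdm2b-CXXC and 100 higher in Kdm2a-CXXC, and in the highest quintile, around 117 RPM, 3 and 38. The median difference beyond segments went from -0.19 in the second quintile to 0.12 in the highest. With quantile normalization, which gives all libraries the same spread of levels, these medians were 0.0013 and -0.00046, and the 738 calls beyond segments divided into 408 higher in Kdm2a-CXXC and 330 higher in Kdm2b-CXXC. Called under both scalings were 589 promoters, 268 higher in Kdm2a-CXXC and 321 higher in Kdm2b-CXXC, and none of them changed direction.

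**Figure D4:**
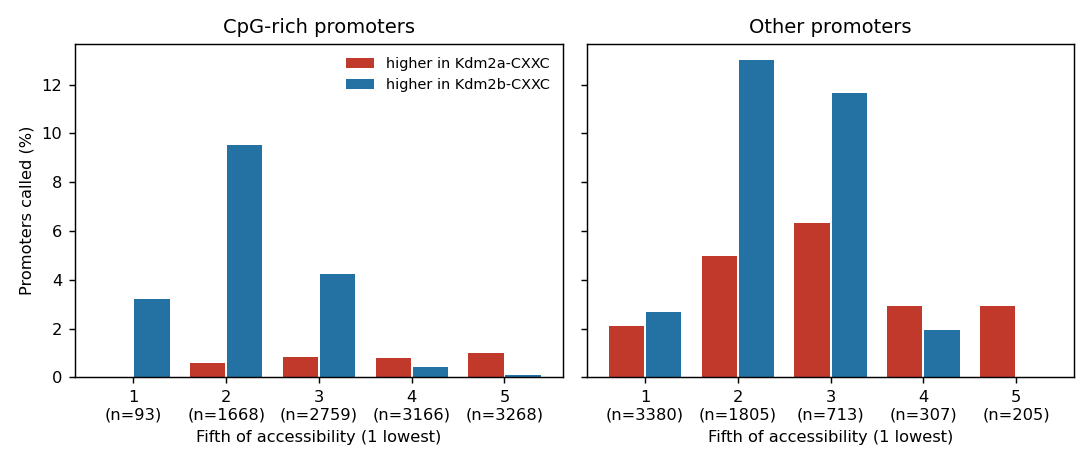
Share of tested promoters called higher in Kdm2a-CXXC (red) or higher in Kdm2b-CXXC (blue) beyond segment medians, by quintile of mean accessibility, for CpG-rich (left) and other promoters (right). In the second quintile of other promoters 13.0% were higher in Kdm2b-CXXC and 4.99% higher in Kdm2a-CXXC.

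The size of most differences was moderate. The median fold of the called promoters was 1.69, 272 of the 1021 passed 2-fold, and 7 passed 4-fold, of which 6 were higher in Kdm2a-CXXC. The libraries of the lines did not overlap at 955 of the 1021, while this held at 32.7% of all promoters tested.

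The 12 largest differences in each direction beyond segment medians are named next, by a rule added after the segments had been seen. The largest was at Arap1, a GTPase-activating protein for Arf proteins, on chromosome 7 in the interval chr7:101385326-101385725. It had 70.5, 80.7 and 69.5 RPM in Kdm2a-CXXC against 13.6, 14.2 and 10.4 in Kdm2b-CXXC, so that the groups lay far apart, and 57.5, 44.6 and 78.0 RPM in Kdm2a-CXXC against 14.8, 16.4 and 12.4 in Kdm2b-CXXC after tamoxifen. The difference beyond its segment was 2.53 ± 0.18 (log2, standard error, adjusted p = 7.3e-17, limma). This start site is 1 of 4 tested for the gene. The next one upstream stood at 24.9 RPM in Kdm2a-CXXC and 16.3 in Kdm2b-CXXC, and it was called with the chromosome median removed (0.66, adjusted p = 0.0408, limma) and not with the segment median removed (0.59, adjusted p = 0.0871, limma). The CpG-rich one farthest upstream stood at 37.0 RPM in Kdm2a-CXXC and 34.4 in Kdm2b-CXXC, and the one farthest downstream, which was also called, at 69.6 and 34.9.

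Kat2b, a histone acetyltransferase, showed the same arrangement. Its CpG-poor promoter had 22.9, 29.4 and 25.9 RPM in Kdm2a-CXXC against 7.80, 4.87 and 4.98 in Kdm2b-CXXC (difference beyond segments 2.06 ± 0.27, adjusted p = 9.19e-08, limma), whereas the CpG-rich promoter upstream stood at 49.4 in Kdm2a-CXXC against 47.1 in Kdm2b-CXXC. Tmem248, a transmembrane protein, had 23.3, 27.8 and 14.5 RPM in Kdm2a-CXXC against 3.51, 5.68 and 4.98 in Kdm2b-CXXC at a CpG-poor start and 47.5 and 54.2 as line means at its CpG-rich start. Arhgef2, a microtubule-bound guanine nucleotide exchange factor, went the other way, with 8.53, 8.26 and 5.66 RPM in Kdm2a-CXXC against 23.4, 27.2 and 27.8 in Kdm2b-CXXC at a CpG-poor start and 46.6 and 49.7 at its CpG-rich start. In treated libraries the CpG-rich start of Arhgef2 was called lower in Kdm2a-CXXC too (-0.71, adjusted p = 0.00436, limma). These 4 genes were noticed after their values were seen, and a difference between promoters of 1 gene was not tested. Over all genes, 779 had at least 2 tested promoters, 136 of them at least 1 called promoter, and in 132 of these 136 another promoter was not called. Of all tested promoters 5.88% were called, and at that share an uncalled promoter beside a called one is common.

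Several other promoters were several-fold higher in Kdm2a-CXXC cells. AW549542, a non-coding transcript, had 44.9, 47.3 and 44.4 RPM in Kdm2a-CXXC against 7.80, 11 and 5.81 in Kdm2b-CXXC (difference beyond segments 2.45, adjusted p = 3.56e-12, limma). It lies on chromosome 5 near Tbx3, a naive pluripotency factor, which had 164, 140.5 and 141 RPM in Kdm2a-CXXC against 94.3, 98.6 and 125 in Kdm2b-CXXC and a difference of 0.56 (adjusted p = 4.46e-05, limma). The call at Tbx3 was lost with quantile normalization. Here and in the following paragraphs libraries were left out of the comparison with chromosome medians removed, which ended the calls at Tbx3 without Kdm2a-CXXC replicate 1 (0.48) and Pate1 without Kdm2a-CXXC replicate 3 (1.97). Smim6, a small membrane protein, had 57.5, 52.9 and 47.3 RPM in Kdm2a-CXXC against 12.9, 14.6 and 14.9 in Kdm2b-CXXC, and Crybg2, a crystallin-domain gene, had 24.2, 34.4 and 33.9 RPM in Kdm2a-CXXC against 5.85, 9.33 and 2.91 in Kdm2b-CXXC. Fxyd4, a regulator of the sodium pump, had 33.2, 46.6 and 38.8 RPM in Kdm2a-CXXC against 12.5, 19.5 and 7.47 in Kdm2b-CXXC. In all 4 of AW549542, Smim6, Crybg2 and Fxyd4 the lowest Kdm2a-CXXC library exceeded the highest Kdm2b-CXXC library, and the treated libraries gave differences of 2.12, 1.32, 1.86 and 1.38. Slc4a9, Crnn, Tnfrsf14 and 2210417A02Rik had differences of 1.98, 1.81, 1.89 and 1.92 at levels under 22 RPM, and 0.99, 1.42, 0.94 and 1.59 in treated cells. Pate1 was called at 2.19 on at most 7.68 RPM, with no read in 2 Kdm2b-CXXC libraries, and differed by 0.24 in treated cells.

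The largest difference in the other direction was at Sox2ot, the non-coding transcript that overlaps Sox2. It had 3.59, 4.96 and 7.27 RPM in Kdm2a-CXXC against 23.4, 19.9 and 20.8 in Kdm2b-CXXC, a difference beyond segments of -2.11 (adjusted p = 8.72e-07, limma), but the treated libraries gave 10.4, 11.4 and 9.82 RPM in Kdm2a-CXXC against 11.3, 7.96 and 11.6 in Kdm2b-CXXC, so the lines overlapped there. Its line by treatment term had an unadjusted p of 2e-05 and an adjusted p of 0.125 (limma), at a promoter selected on the untreated libraries that enter this term. The Sox2 promoter itself was not called.

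The promoters of Stmn2, Pdcl2, Slc16a4, Hdac9 and Prlr were called in the treated libraries too. Stmn2, a neuronal regulator of microtubules, had 22.4, 17.5 and 15.8 RPM in Kdm2a-CXXC against 56.1, 48.3 and 51 in Kdm2b-CXXC before and 17.4, 19.4 and 15.3 RPM in Kdm2a-CXXC against 42.7, 48.7 and 44.6 in Kdm2b-CXXC after treatment. Pdcl2, a phosducin-like protein of the germline, had 8.08, 9.59 and 12.9 RPM in Kdm2a-CXXC against 45.6, 37.7 and 34.9 in Kdm2b-CXXC, and Slc16a4, a monocarboxylate transporter family member, had 22.9, 18.8 and 9.29 RPM in Kdm2a-CXXC against 37.0, 45.4 and 41.9 in Kdm2b-CXXC. Their differences in treated cells were -1.56, -1.67 and -1.51. Hdac9, a class IIa histone deacetylase, had 3.14, 11.6 and 9.29 RPM in Kdm2a-CXXC against 23.0, 29.2 and 31.1 in Kdm2b-CXXC, with -1.73 in untreated and -0.91 in treated cells. Prlr, the prolactin receptor, had 9.88, 7.60 and 5.25 RPM in Kdm2a-CXXC against 26.9, 21.5 and 27.8 in Kdm2b-CXXC, with -1.57 and -1.17. Phactr1, Clec4f, 1700092E19Rik and 4933407L21Rik were also among the 12 largest, at means of at most 20 RPM in either line, and Arhgef2 and H19 made up the 12. Their treated differences were -0.89 at 1700092E19Rik and -1.42 at 4933407L21Rik, both called, and -0.87 at Phactr1 and 0.25 at Clec4f, where neither was called and Clec4f had the other sign. Leaving out 1 library ended the call at Clec4f without Kdm2a-CXXC replicate 1 (-0.94) or Kdm2b-CXXC replicate 1 (-1.49) or 2 (-1.61) or 3 (-1.33).

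**Figure D5:**
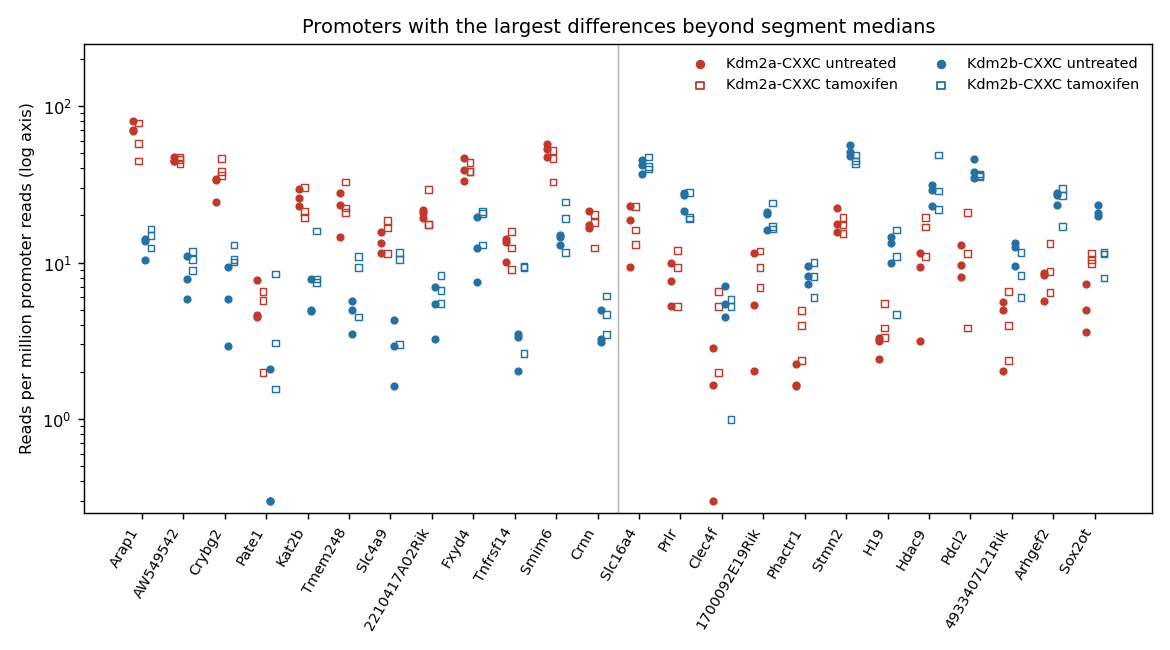
RPM (log axis) in each untreated (circles) and tamoxifen-treated (open squares) library of Kdm2a-CXXC (red) and Kdm2b-CXXC (blue) for the 12 promoters with the largest differences beyond segment medians in each direction, ordered by that difference; values of 0 are drawn at 0.3. Arap1 is at the left and Sox2ot at the right, where the squares of the lines overlap.

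The genes that the study edited were examined next. The promoter of Kdm2a had 67.3, 69.1 and 70.3 RPM in Kdm2a-CXXC against 69.4, 78.3 and 78.4 in Kdm2b-CXXC, and the lines overlapped (-0.04, adjusted p = 0.887, limma). Kdm2b has 2 tested promoters. The one at chr5:122900151-122900550 had 75.4, 83.3 and 97.0 RPM in Kdm2a-CXXC against 106, 90.1 and 99.6 in Kdm2b-CXXC and was not called (adjusted p = 0.472, limma). The other, at chr5:122988900-122989299, was lower in Kdm2a-CXXC, with 13.0, 10.9 and 12.9 RPM in Kdm2a-CXXC against 26.5, 22.3 and 25.7 in Kdm2b-CXXC (-0.88 ± 0.23, adjusted p = 0.00644, limma). In treated cells it had 19.3, 17.1 and 16.9 RPM in Kdm2a-CXXC against 21.4, 20.4 and 20.5 in Kdm2b-CXXC, a difference of -0.13. Its interval overlaps that of A930024E05Rik, so the pair share reads. The CRE transgene sits at the Rosa26 locus, and the promoter of Gt(ROSA)26Sor, whose interval overlaps Setd5, had 132, 136 and 158 RPM in Kdm2a-CXXC against 148, 139.6 and 152 in Kdm2b-CXXC and was not called. Fbxl20 and Fosl2 were not called either (-0.04 and -0.10).

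Gene groups were then read against the 5.88% of all tested promoters that were called beyond segments. Calls also varied with level, and in the second lowest quintile 2.88% were higher in Kdm2a-CXXC and 11.3% higher in Kdm2b-CXXC. Of 18 naive pluripotency promoters, 1 was called higher in Kdm2a-CXXC (Tbx3) and 2 higher in Kdm2b-CXXC (Prdm14 and Lin28a). Prdm14, a repressor of DNA methyltransferase genes, had 24.2, 20.2 and 25.5 RPM in Kdm2a-CXXC against 57.3, 49.9 and 45.7 in Kdm2b-CXXC and a difference of -0.89, with -0.30 in treated cells. The summed level of the group was 1963 to 2085 RPM in Kdm2a-CXXC and 1479 to 1520 in Kdm2b-CXXC, a sum that includes Klf5 and Tfcp2l1 in the shifted segments, and the group's median difference beyond segments was 0.04 (17 formative and primed promoters, -0.27).

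Among the formative and primed promoters Foxd3, a stem cell forkhead factor, was higher in Kdm2a-CXXC (0.53), and Sall2 (-0.72) and Zic5 were lower. The lineage groups held 1 call each, higher in Kdm2b-CXXC. There was 1 among 11 primitive endoderm promoters (Lamb1, -0.60), 1 among 12 of mesoderm and primitive streak (Wnt3), 1 among 13 neural (Pax6, -0.69) and 1 among 9 of trophoblast (Tfap2c, -0.55). With quantile normalization Pax6 and Tfap2c were no longer called with chromosome medians removed. In treated libraries Lamb1, Wnt3 and Sall2 were called beyond segments and Foxd3, Zic5, Pax6 and Tfap2c were not. Leaving out 1 library ended the calls at Foxd3 without Kdm2a-CXXC replicate 1 (0.38) or 3 (0.52) or Kdm2b-CXXC replicate 1 (0.50) or 2 (0.48), Pax6 without Kdm2a-CXXC replicate 3 (-0.44) or Kdm2b-CXXC replicate 2 (-0.52) and Tfap2c without Kdm2a-CXXC replicate 1 (-0.37) or Kdm2b-CXXC replicate 2 (-0.49).

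Imprinted genes had calls at 10 of 56 tested promoters (17.9%, against 5.88% of all tested promoters), 1 higher in Kdm2a-CXXC and 9 higher in Kdm2b-CXXC. The median level of the 56 was 35.0 RPM, between the second quintile (23.7 RPM) and the third (49.2 RPM). In those quintiles 14.2% and 7.72% of promoters were called, and 11.3% and 5.76% were higher in Kdm2b-CXXC. H19, a maternally expressed non-coding RNA, had 3.14, 3.31 and 2.42 RPM in Kdm2a-CXXC against 13.3, 14.6 and 9.96 in Kdm2b-CXXC (-1.69, adjusted p = 0.000662, limma) and 5.46, 3.32 and 3.82 RPM in Kdm2a-CXXC against 16.1, 10.9 and 4.65 in Kdm2b-CXXC in treated cells, where the lines overlapped. Nap1l5, a paternally expressed nucleosome assembly protein, had 18.4, 20.5 and 17.8 RPM in Kdm2a-CXXC against 49.5, 27.6 and 40.3 in Kdm2b-CXXC, and its difference was -0.94 in untreated and -0.96 in treated cells. Asb4 stood at -1.34 and Cobl at 1.34, the 1 that was higher in Kdm2a-CXXC. In treated cells Asb4 stood at -0.93 and Cobl at 0.35, and neither was called. The remaining 6, whose names were added after their values were seen, were Plagl1, Airn, Impact, Nnat, Peg3 and Usp29, with differences between -0.85 and -0.57, and Peg3 and Usp29 share an interval and so their reads. The median over the 56 was -0.14. With 1 library left out, no call was made at Asb4 without Kdm2a-CXXC replicate 1 (-1.04) or Kdm2b-CXXC replicate 1 (-1.14) or 3 (-1.26) and Cobl without Kdm2a-CXXC replicate 3 (1.13).

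Of 34 tested promoters of interferon response and viral sensor genes, 6 were called. The median level of the 34 was 23.8 RPM, near the 23.7 RPM of the second quintile, where 14.2% were called. Oas2, an antiviral 2′-5′ oligoadenylate synthetase, was higher in Kdm2a-CXXC, with 13.0, 17.2 and 16.6 RPM in Kdm2a-CXXC against 7.80, 4.06 and 2.08 in Kdm2b-CXXC (1.75, and 1.62 in treated cells). Its relative Oasl2 was lower, with 3.14, 3.64 and 2.83 RPM in Kdm2a-CXXC against 5.07, 11 and 18.3 in Kdm2b-CXXC (-1.34), but differed by -0.02 in treated cells. Ddx60, a helicase of antiviral sensing, had 21.5, 19.2 and 19 RPM in Kdm2a-CXXC against 37.0, 51.5 and 56.0 in Kdm2b-CXXC, and Ifit1 stood at -1.03 and shares its interval with Ifit1bl2. Neither Ddx60 nor Ifit1 was called in treated cells, at -0.38 and -0.46. The median over the 34 was -0.08. Leaving out 1 library ended the calls at Oasl2 without Kdm2b-CXXC replicate 2 (-1.29) or 3 (-0.95) and Ifit1 without Kdm2a-CXXC replicate 1 (-0.87) or 2 (-0.97) or Kdm2b-CXXC replicate 1 (-0.78) or 3 (-1.07).

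Hox clusters had 3 calls among 41 tested promoters, all higher in Kdm2b-CXXC. Hoxb1, the anterior gene of its cluster, had 12.6, 12.2 and 15.8 RPM in Kdm2a-CXXC against 40.9, 28.4 and 26.6 in Kdm2b-CXXC (-1.11) and 11.9, 13.8 and 10.4 RPM in Kdm2a-CXXC against 30.5, 30.3 and 26 in Kdm2b-CXXC in treated cells. Hoxb6 and Hoxd3 stood at -0.72 and -0.58, and both calls were lost with quantile normalization in the comparison with chromosome medians removed. Neither was called in treated cells, at -0.32 and -0.55. With 1 library left out, no call was made at Hoxb6 without Kdm2b-CXXC replicate 2 (-0.56) and Hoxd3 without Kdm2a-CXXC replicate 3 (-0.53) or Kdm2b-CXXC replicate 2 (-0.54) or 3 (-0.54). The median over the Hox promoters was -0.24. Other developmental families had medians of -0.15 (44 forkhead promoters, 1 call in each direction) and -0.20 (24 promoters of the Sox pattern, whose 1 call was Sox2ot). Promoters of the second quintile by level, whatever their gene group, had a median of -0.19.

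Signalling genes were called in both directions. Of 55 Wnt pathway promoters 3 were called higher in Kdm2a-CXXC and 4 higher in Kdm2b-CXXC. The ligand Wnt3 had 30.1, 42.3 and 35.6 RPM in Kdm2a-CXXC against 60.4, 69.8 and 74.7 in Kdm2b-CXXC (-0.85, and -0.59 in treated cells), the ligand Wnt16 stood at -0.79, and the receptor Fzd2 had 92.0, 88.9 and 80.4 RPM in Kdm2a-CXXC against 130.2, 146 and 145 in Kdm2b-CXXC (-0.62, and -0.63 in treated cells). The transcription factor Tcf7l1 was higher in Kdm2a-CXXC (0.56). In the TGF-beta, BMP and Nodal pathway, 1 of 41 was higher in Kdm2a-CXXC (the ligand Bmp4, 0.62) and 2 were higher in Kdm2b-CXXC, the Nodal antagonist Lefty1 (-0.82) and the receptor Bmpr1b (-0.82). Among 28 LIF and FGF promoters 1 was called, the receptor Fgfr3 (0.53, and 0.03 in treated cells). With 1 library left out, no call was made at Fgfr3 without Kdm2a-CXXC replicate 1 (0.41) or Kdm2b-CXXC replicate 1 (0.40).

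The chromatin regulators had shares of calls between 5.26% and 10.5%, around the 5.88% of all tested promoters. Of 30 polycomb promoters, Aebp2 (-0.73) and Phf19 (-0.73), both accessory subunits of PRC2, were lower in Kdm2a-CXXC. Their differences in treated cells were -0.48 and -0.19, and neither was called there. Of 19 JmjC demethylase promoters 2 were called, the second Kdm2b promoter and Jmjd1c (-0.88), and Kdm5b went from -0.52 with its chromosome's median removed to -0.00 with its segment's. Of 13 ZF-CxxC promoters the second Kdm2b promoter was the 1 call. Of 19 promoters of the DNA methylation machinery, Dnmt3l, the catalytically inactive partner of the de novo methyltransferases, was higher in Kdm2a-CXXC (0.56, adjusted p = 0.0152, limma, and 0.54 in treated cells). In treated cells Dnmt3l was not called (adjusted p = 0.0719, limma), and the lines overlapped there. Leaving out 1 library ended the calls at Dnmt3l without Kdm2a-CXXC replicate 2 (0.51) and Phf19 without Kdm2a-CXXC replicate 3 (-0.47) or Kdm2b-CXXC replicate 1 (-0.66).

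Among 31 promoters of germline genes that are usually silenced in stem cells 1 was called, and it was open in both lines. Hormad2, a protein of the meiotic chromosome axis, had 119, 114 and 137 RPM in Kdm2a-CXXC against 65.5, 54.0 and 41.9 in Kdm2b-CXXC (1.26 ± 0.12, adjusted p = 3.06e-11, limma) and 131, 132 and 116 RPM in Kdm2a-CXXC against 42.3, 45.8 and 44.9 in Kdm2b-CXXC in treated cells, so that its libraries stayed apart in both conditions. It was a CpG-rich promoter, shown above with 7 CG in 200 bases.

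Among the large gene families the share of calls was between 1.12% and 8.82%, against 5.88% of all tested promoters. Zinc finger genes named Zfp had 7 calls among 302 tested promoters (2.32%), with Zfp948 highest (0.73) and Zfp385b lowest (-0.96). With the chromosome median alone removed there were 13, and Zfp940, in the shifted segment of chromosome 7, went from -0.63 to -0.40. Ribosomal protein genes had 1 call among 84 (Rpl22l1, 0.49, and 0.20 in treated cells), and Rpl31 in the long segment of chromosome 1 went from 0.61 to 0.34. Solute carriers had 5 calls higher in Kdm2a-CXXC and 12 higher in Kdm2b-CXXC among 312 (5.45%). Keratins had 3 among 34, Krt13 (1.12, and 1.97 in treated cells), Krt42 (-1.13, and -0.76 in treated cells) and Krt20 (-1.04, and 0.09 in treated cells). Clustered protocadherins had 1 among 35 (Pcdhb1, -0.93, and -0.02 in treated cells). Chemosensory receptors, which are closed in stem cells, had 1 among the 89 of 541 that passed the filter (Olfr429, 1.39, and 0.31 in treated cells). With 1 library left out, no call was made at Zfp385b without Kdm2b-CXXC replicate 1 (-0.90) or 3 (-0.79), Rpl22l1 without Kdm2a-CXXC replicate 1 (0.44) or Kdm2b-CXXC replicate 2 (0.39), Krt13 without Kdm2a-CXXC replicate 1 (0.89) or 3 (1.03) or Kdm2b-CXXC replicate 2 (1.01) or 3 (0.82), Krt20 without Kdm2a-CXXC replicate 3 (-0.50) or Kdm2b-CXXC replicate 3 (-0.92) and Olfr429 without Kdm2a-CXXC replicate 1 (0.99) or 2 (1.43) or 3 (1.42) or Kdm2b-CXXC replicate 1 (0.85) or 3 (1.13). No call was made among 10 fibroblast and 5 strain copy-number promoters, and no promoter was matched for the 2-cell-like and the replication-dependent histone lists.

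The other 2 lines of the series were read at the called promoters in treated libraries, which were not used for the calls. At the 311 promoters higher in Kdm2a-CXXC, the median difference from Kdm2b-CXXC was 0.62 for Kdm2a-CXXC, 0.06 for Kdm2a/b-CXXC and 0.27 for Kdm2a/b-JmjC. At the 710 promoters higher in Kdm2b-CXXC the medians were -0.48, -0.05 and -0.18. The Kdm2a/b-CXXC line, which descends from Kdm2b-CXXC cells and lacks both ZF-CxxC domains in these libraries, stood nearest to Kdm2b-CXXC in both sets. All 3 medians share the treated Kdm2b-CXXC libraries.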

How the data were processed

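ATAC libraries of 6 untreated samples (3 per line) were compared, with 6 tamoxifen-treated libraries of the same lines as a repeat. Per the study's methods, the authors aligned reads with Bowtie 2 to the mouse and Drosophila genomes, removed duplicates and counted promoter reads. The deposited values are read signal per 400 bp promoter divided by a spike-in size factor set separately for each line's table. Whole reads were recovered from all values (tolerance 0.001 reads) and scaled to reads per 1000000 promoter reads. After edgeR's filterByExpr, log2 levels with a pseudocount of 1 were tested with limma 3.58.1 (R 4.3.3, trend, two-sided, Benjamini-Hochberg). The design had named a count test if raw counts were deposited, and edgeR 4.0.16 and DESeq2 1.42.0 on recovered reads served as alternatives. The median line difference of each chromosome was subtracted from the Kdm2a-CXXC libraries. In a step added after seeing the data, medians of segments of at least 20 promoters, fitted to the untreated differences, were subtracted instead. Named promoters were the edited genes, the 12 largest per direction beyond chromosome or segment medians, and up to 4 called members per gene list. The members and lists were chosen with earlier results of these data known. The study describes its libraries as biological triplicates or quadruplicates. No source states that replicates were separate cultures, so p-values measure the spread between these libraries. Depth of 2227838 to 3025358 promoter reads per untreated library limits precision at low promoters. Calculations were tested on simulated data with changes planted at single promoters and a shift planted along a whole chromosome. No change was planted at promoters with few reads. No shift of part of a chromosome was planted, so the segment step was not tested on such a shift.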

Additional observations from a re-analysis of the deposited data

How the results depend on the processing

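Scaling decided which line had more calls. Quantile normalization gave 857 promoters higher in Kdm2a-CXXC and 632 higher in Kdm2b-CXXC with no median removed, 655 and 579 with chromosome medians removed, and 408 and 330 with segment medians removed. In treated cells it gave 766 and 562 with no median removed and 544 and 470 with chromosome medians removed. DESeq2 with no median removed gave 706 and 707 in untreated and 767 and 725 in treated cells. Under the other settings of these comparisons more promoters were higher in Kdm2b-CXXC. The CpG-rich class went to -0.0248 under quantile normalization and to 0.0082 with no filter, and the number of shifted autosomes went from 5 to 3 with quantile normalization and 3 with GC bins. A fold over 2 left 551 promoters with no median removed, 476 beyond chromosome medians and 272 beyond segment medians. DESeq2 called 651 beyond segment medians and edgeR 1064. Segment medians took the treated count from 1874 to 912, and together with quantile normalization took the untreated count from 1500 to 738. Other counts of calls stayed within 1.5 times of the reported ones.

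Leaving out 1 library gave 1702 to 1968 calls with no median removed, 1256 to 1520 beyond chromosome medians, 748 to 1012 beyond segment medians, 1449 to 1830 in treated cells, 988 to 1336 there beyond chromosome medians, and 0 to 3 for line by treatment. Same-numbered libraries of the lines did not deviate together (correlations of -0.0189, 0.00844 and -0.0049). These values gave no sign of pairing by number and cannot show how the libraries were prepared. A replicate block gave 2075 calls with no median removed, 1512 beyond chromosome medians, 1045 beyond segment medians, 1900 in treated cells and 1398 there beyond chromosome medians.

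Of 1980 values of the 99 named promoters under alternatives, 169 were no longer called and 12 changed sign. The sign changed under quantile normalization at Fosl2 (0.093) and Gt(ROSA)26Sor (-0.154), with GC bins at Fbxl20 (0.0035), and with a running median at Fbxl20 (0.0019), Zic2 (0.167), Tfcp2l1 (-0.045) and Sox13 (0.129). It changed with segment medians at Tfcp2l1 (-0.214) and Sox21 (0.0424), and when 1 library was left out at Fbxl20 (-0.107 to 0.0708), Fosl2 (-0.24 to 0.115) and Gt(ROSA)26Sor (-0.000119 to 0.105). Causes were not tested. Promoters with few reads carry the widest errors.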
